A study of Rattus norvegicus with 2 samples.

Results

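Goblet cells of the rat proximal jejunum were examined apart from dividing cells of the same lineage. A barcode was counted as a non-cycling goblet cell when the transcripts Tff3, Zg16, Fcgbp, Clca1 and Agr2 together made up at least 4% of its unique molecular identifiers (UMIs) and Mki67 and Top2a, markers of dividing cells, together gave at most 1 UMI. The cells were thus chosen by measured values of 7 genes. The gene number of a barcode had to lie between 200 and 5800, its UMI number above 5000 and its mitochondrial share at or below 40%. This rule found 389 cells among 8218 retained barcodes, of 20285 barcodes in all. Every one of the 389 cells held a UMI of Epcam, the epithelial adhesion molecule, and 7442 other retained barcodes did so.

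The cells came from 2 male Sprague Dawley rats, aged 6 to 8 weeks and weighing 180 to 200 g by the sample labels, with no treatment and no second condition. Both rats had been fasted overnight, and their jejunal epithelium was released with EDTA and then dispase and captured with 10x 3′ chemistry. There was 1 library a rat, and the matrix of rat 1 carried an earlier version of the counting software than that of rat 2, so rat, library and software version cannot be told apart. Transcript levels are given as CPM, the UMIs of a gene per 1000000 UMIs outside the 7 genes of the rule, summed over the cells of a class in 1 rat.

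Goblet cells are the mucus-making secretory cells of the gut lining. They pack the gel-forming mucin Muc2 into apical granules together with small proteins that shape the mucus layer, a task that needs heavy protein folding in the endoplasmic reticulum (ER), O-glycosylation in the Golgi and regulated exocytosis. They arise from crypt progenitors that escape Notch signaling and switch on Atoh1 and then Spdef.

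Rat 1 gave 224 goblet cells of 5977 Epcam-positive cells, a share of 3.75% (exact binomial 95% interval 3.28 to 4.26). Rat 2 gave 165 of 1854, a share of 8.90% (7.64 to 10.3). The intervals cover counting error only and did not overlap. The share moved with the mitochondrial limit, because in rat 2 a limit of 20% left 149 goblet cells among 783 Epcam-positive cells (19.03%), whereas in rat 1 it left 217 of 5208 (4.17%). Whether the animals or the libraries account for this difference was not tested. The goblet cells held 2471047 UMIs in rat 1 and 2643499 in rat 2, with a median of 9133 and 15048 UMIs a cell. The median mitochondrial share was 7.08% and 5.22%. Of the barcodes present in both libraries, none was a goblet cell in both.

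The 5 marker transcripts chose the cells, so their levels are a description. They took a median of 12.9% of the UMIs of a goblet cell in rat 1, from 4.05% to 48.1%, and 28.2% in rat 2, from 4.23% to 45.7%. The cells nearest to the limit had 4.05% in rat 1 and 4.23% in rat 2 on the inside, and 3.98% and 3.46% on the outside. The mixture of the markers differed between the rats. Zg16, a lectin-like granule protein, made up 4.89% of goblet UMIs in rat 1 and 12.3% in rat 2. Fcgbp, a large mucus protein that binds Muc2, made up 1.08% and 4.76%. In the other direction, Agr2, a disulfide isomerase of the ER needed for mucin folding, made up 2.25% and 0.982%, and Clca1, a secreted protease of the mucus, 1.16% and 0.504%. Tff3, the trefoil peptide, was similar at 4.89% and 5.19%.

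The label was checked against goblet genes outside the rule. Muc2 is listed in the files under a clone name, AABR07006030.1, which RefSeq gives as a synonym. With every cell thinned to 5000 UMIs, a Muc2 UMI was found in 222 of 224 goblet cells of rat 1 and 163 of 165 of rat 2. Among the other epithelial cells, the shares were 11.9% and 9.78% (23.8% and 25.2% unthinned), at median depths of 12263 and 20502 UMIs. This class took in cells just under the 4% marker limit, dividing ones included, and the source of these Muc2 UMIs was not tested. Atoh1, the transcription factor that commits cells to the secretory lineage, was detected in 71.4% of thinned goblet cells in rat 1 and 60.6% in rat 2, against 1.53% and 0.205% of other epithelial cells. Spdef, which drives goblet maturation, was detected in 68.8% and 72.1%, against 1.64% and 0.616%. All 3 genes marked the goblet cells of both rats.

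To ask which other genes set goblet cells apart, UMIs were summed in each rat over 6 classes, namely goblet cells, cycling goblet-lineage cells, tuft cells, CFTR high expressers (CHEs), enteroendocrine cells (EECs) and all other epithelial cells, most of which were absorptive. The 7 genes of the rule were left out, and 8805 genes were tested over the 12 sums with the quasi-likelihood method of edgeR, with p-values adjusted after Benjamini and Hochberg. The 2 sums of a class are the replicates, and the spread was estimated over all 6 classes. Against other epithelial cells, 234 genes were higher in goblet cells (2.66% of those tested) and 36 were lower (0.409%), 3.07% in all. All classes came from the same animals. With the rat as a block, 587 genes were higher (6.67%) and 620 lower (7.04%), 13.7% in all, and all 270 genes of the first fit were among them. With only the 4 sums of these 2 classes in the fit no gene passed, although 1598 of 11100 genes had an unadjusted p under 0.05, so the calls rest on a spread shared with the other classes. Against all other Epcam-positive cells taken as 1 class no gene passed either (1489 of 11264 at an unadjusted p under 0.05), and 63 of 64 named or listed calls were lost, while the last reversed. That fit too held only 4 sums, so a change of the other side and the loss of the shared spread cannot be told apart in it.

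Among genes at 50 CPM or more in goblet cells of both rats, Muc2 had the largest difference. It stood at 9816 CPM in goblet cells of rat 1 and 38415 in rat 2, and at 69.8 and 54.6 in other epithelial cells. The log2 fold change was 8.25 (SE 1.22, adjusted p = 0.0038). Next was Reg4, a secreted lectin of the regenerating family, at 636 and 1629 CPM in goblet cells and 2.62 and 3.11 in other epithelial cells. Its log2 fold change was 8.23 (SE 1.21, adjusted p = 0.0038). Reg4 was also found in EECs, at 730 and 7469 CPM. In both genes the goblet values lay far above the other epithelial values in each rat.

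Several of the remaining genes encode secreted or granule proteins. Pla2g10, a secreted phospholipase A2, was at 367 and 447 CPM in goblet cells and 3.201 and 0.458 in other epithelial cells (log2 fold change 7.49, SE 1.23, adjusted p = 0.0063). Spink4, a protease inhibitor of goblet granules, was at 1377 and 917 against 14.0 and 1.54 (6.93, SE 1.45, adjusted p = 0.031). Klk1b3, a kallikrein serine protease, was at 306 and 544 against 3.68 and 1.08 (adjusted p = 0.0041). Tpsg1, a transmembrane tryptase, was at 64.7 and 153 against 0.665 and 1.01 (adjusted p = 0.0046), and Fcna, a ficolin of innate defense, at 59.0 and 145 against 0.828 and 0.458 (adjusted p = 0.0037). In each of these genes both goblet values lay above both other epithelial values. Ramp1, the accessory subunit of the receptor for the neuropeptide CGRP, was at 1676 and 1964 against 18.6 and 3.70 (7.07, SE 1.26, adjusted p = 0.010). A UMI of Ramp1 was found in 94.6% and 95.8% of thinned goblet cells, and in 4.78% and 1.16% of other epithelial cells. Bace2, an aspartyl protease, Fer1l6, a ferlin, B4galt4, a galactosyltransferase, and Slc12a8, a transporter of the cation-chloride cotransporter family, were also among the 15 genes with the largest positive differences, at log2 fold changes between 6.57 and 7.69. The levels of 8 goblet genes in all 6 classes are plotted by rat.

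**Figure D1:**
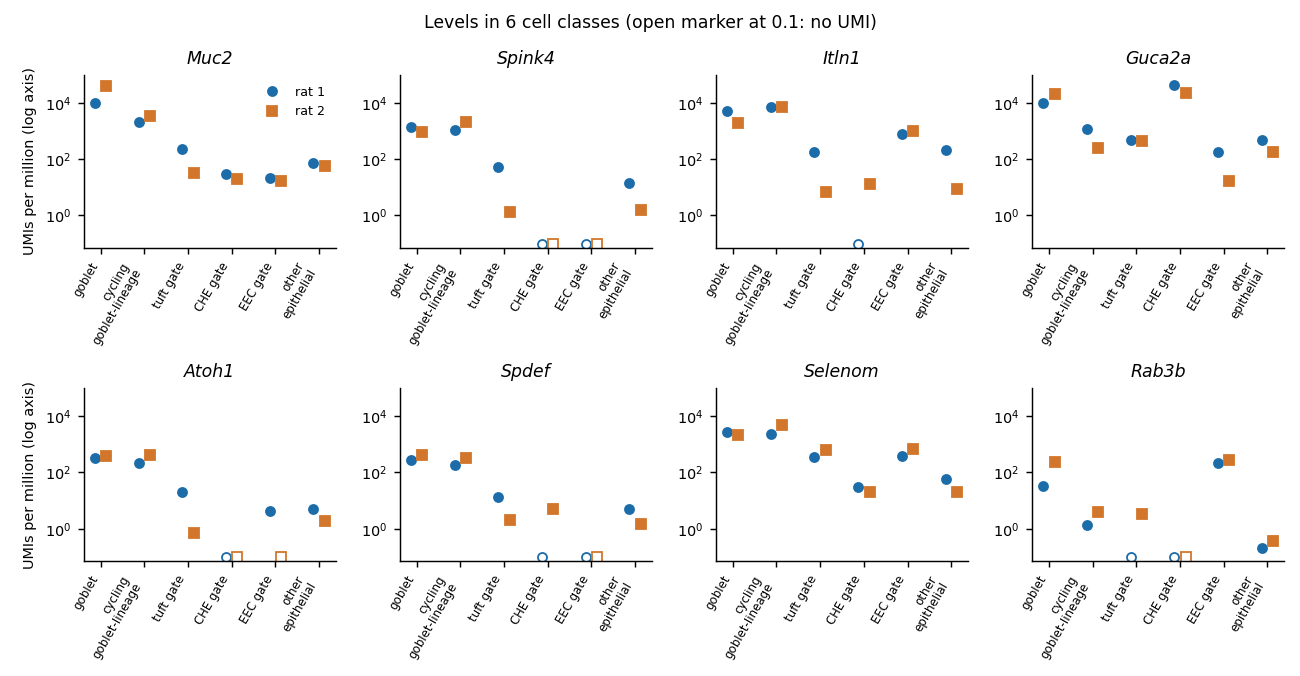
Level of 8 genes in CPM (log axis) in goblet cells and 5 other classes, 1 circle for rat 1 and 1 square for rat 2, with open markers where a class held no UMI. Muc2, Spink4, Atoh1 and Spdef are high in goblet and cycling goblet-lineage cells of both rats and low elsewhere, Guca2a is also high in the CHE gate, and Rab3b is also found in the EEC gate.

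Of 10 tested members of a list of secreted and surface mucus proteins, 3 were higher in goblet cells and none was lower (median log2 fold change 2.67), and 5 were higher with the block. The 3 were Muc2, Spink4 and Wfdc2, a small protease inhibitor of mucosal surfaces. Wfdc2 was at 228 and 73.4 CPM in goblet cells and 15.5 and 1.90 in other epithelial cells (log2 fold change 3.81, SE 0.90, adjusted p = 0.039). Itln1, a lectin that binds microbial sugars, was at 5027 and 1932 against 218 and 8.38 and passed with the block alone (4.68, SE 1.46, adjusted p = 0.12, and 0.0029 with the block). Tff1, the stomach trefoil peptide, had no UMI in goblet cells of rat 1 and stood at 161 in rat 2, where its UMIs lay in 27 of 165 goblet cells. Mucus-layer genes that absorptive cells also make did not pass. Lypd8 was at 5456 and 18852 against 3462 and 3092 (adjusted p = 0.48), Muc13 at 1208 and 3234 against 891 and 2336 (adjusted p = 1.0) and Pigr, the receptor that carries IgA into the lumen, at 163 and 130.4 against 105 and 117 (adjusted p = 1.0).

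Regulated secretion depends on granule transport and fusion genes. Of 26 tested members of a list of granule transport and exocytosis genes, 12 were higher in goblet cells and none was lower, with a median log2 fold change of 3.48 against -0.10 over all genes tested. With the block, 14 were higher and 1 lower. The 12 included the small GTPases Rab27a, Rab27b, Rab3b, Rab3d and Rab15, which direct granules to the apical membrane. Rab3b was at 32.6 CPM in goblet cells of rat 1 and 234 in rat 2, and at 0.213 and 0.360 in other epithelial cells (log2 fold change 8.47, SE 1.13, adjusted p = 0.0038). Rab15 was at 167 and 290 against 4.62 and 1.37 (adjusted p = 0.0037). Both were also found in EECs, Rab3b at 215 and 274 and Rab15 at 78.4 and 258. Some effectors of these GTPases were also called. Sytl2, a synaptotagmin-like protein, was at 61.8 and 277 against 1.39 and 2.49 (adjusted p = 0.0048), and Mlph, melanophilin, at 186 and 261 against 3.29 and 0.327 (adjusted p = 0.0041). Capn9 and Capn8, gut calpains, and Unc13b and Syt7, which act in vesicle priming and calcium sensing, completed the group together with Sytl4. Other effectors went otherwise. Exph5, a Rab27 effector, was at 17.9 and 11.4 against 35.3 and 49.3 and was the 1 lower gene with the block (adjusted p = 0.15, and 0.017 with the block), and Sytl1 was at 5.19 and 8.93 against 0.377 and 0.360 (adjusted p = 0.052, and 0.0029 with the block). General trafficking members of the list did not pass. Rab11a was at 220.4 and 326 against 227 and 219.7 (adjusted p = 1.0), and Vamp8, a granule SNARE, at 38.2 and 90.8 against 33.9 and 76.0 (adjusted p = 0.99).

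The goblet transcription factors were higher as well. Of 26 tested members of a list of secretory and epithelial regulators, 6 were higher and none was lower, with a median log2 fold change of 1.13. Atoh1 was at 332 and 383 CPM in goblet cells and 5.05 and 1.83 in other epithelial cells (log2 fold change 6.37, SE 1.03, adjusted p = 0.0062). Spdef was at 269.5 and 405 against 4.83 and 1.44 (6.43, SE 0.87, adjusted p = 0.0038). Foxa3 was at 185 and 293 against 6.89 and 1.70 (adjusted p = 0.0038) and Foxa2 at 25.02 and 39.2 against 1.48 and 1.11 (adjusted p = 0.0046). Foxa2 and Foxa3 are forkhead factors of gut endoderm. Creb3l1 and Creb3l4, membrane-bound factors released by ER and Golgi proteolysis, were at 155 and 190.4 against 6.74 and 2.81 (adjusted p = 0.0048) and at 195 and 274 against 7.76 and 1.603 (adjusted p = 0.0037). Some of these factors were also found in EECs, Foxa2 at 28.9 and 32.2 (7 and 4 UMIs), Foxa3 at 45.4 and 56.3 and Creb3l1 at 37.1 and 48.3. Regulators shared with absorptive cells did not pass. Klf4, often used as a goblet factor, was at 526 and 1302 against 154 and 378 (adjusted p = 0.57, and 0.089 with the block), and Cdx2, the intestinal identity factor, at 233 and 164 against 248 and 135 (adjusted p = 0.95). Hnf4g, an enterocyte factor, was lower only with the block (adjusted p = 0.018), at 60.4 and 20.8 against 145 and 74.6.

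Of 14 tested Notch genes, Jag2, a Notch ligand, was the 1 that passed, with or without the block, and the median log2 fold change of the list was 0.07. Over all genes tested, 2.66% were higher without the block and 6.67% with it. Jag2 was at 14.2 and 13.9 CPM in goblet cells and 1.02 and 0.458 in other epithelial cells (log2 fold change 3.86, SE 0.70, adjusted p = 0.012). In EECs it was no lower, at 33.0 and 129 (8 and 16 UMIs). The ligand Dll1 was at 18.9 and 15.4 against 5.51 and 11.5 (adjusted p = 0.90), Dll4 at 9.44 and 8.93 against 4.92 and 1.77 (adjusted p = 0.64) and the receptor Notch1 at 8.02 and 1.98 against 14.05 and 8.93 (adjusted p = 0.56). The Notch target Hes1 was at 46.7 and 29.8 against 49.2 and 25.3 (adjusted p = 0.98). Apart from Hes1, these genes stood below 20 CPM in goblet and other epithelial cells.

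Mucin O-glycosylation genes were higher in part. Of 40 tested members, 8 were higher and none was lower, with a median log2 fold change of 1.79, and with the block 23 were higher and 4 lower. Galnt5 and Galnt3 add the first sugar of an O-glycan. Galnt5 was at 290 and 287 CPM in goblet cells and 7.82 and 1.64 in other epithelial cells (log2 fold change 5.63, SE 0.82, adjusted p = 0.0038), and Galnt3 at 63.7 and 64.0 against 9.45 and 4.68 (adjusted p = 0.025). The core 1 galactosyltransferase C1galt1, at 177 and 262 against 36.01 and 31.8 (adjusted p = 0.026), and its chaperone C1galt1c1, at 178 and 120 against 35.8 and 17.5 (adjusted p = 0.032), were called as a pair. Sugar supply and capping were represented by Gmds, the first step to GDP-fucose, and the sialyltransferases St3gal1 and St6gal1. St6gal1 was at 76.0 and 30.3 against 1.14 and 0.687 (5.45, SE 1.01, adjusted p = 0.016). The sulfate transporter Slc26a2 was on the other side, at 12.3 and 6.45 against 31.3 and 26.8 (adjusted p = 0.059, and 0.0045 with the block). Papss2, which makes the sulfate donor, was at 26.0 and 257 against 78.4 and 1148 (adjusted p = 0.41, and 0.011 with the block).

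Of 41 tested members of a list of ER folding and unfolded protein response genes, 8 were higher and none was lower, with a median log2 fold change of 0.96, and with the block 15 were higher. Selenom, an ER selenoprotein, was at 2601 and 2067 CPM in goblet cells and 58.5 and 19.5 in other epithelial cells (log2 fold change 5.58, SE 0.77, adjusted p = 0.0038). Ern2, the mucosal form of the stress sensor IRE1 (IRE1β), was at 26.9 and 42.6 against 0.803 and 0.262 (5.64, SE 0.94, adjusted p = 0.0091). The disulfide enzymes Txndc5, Pdia5 and Dnajc10 also passed, whereas Pdia3, Pdia4, Pdia6 and P4hb of the same kind did not (adjusted p = 0.30, 0.16, 0.093 and 0.39). Txndc5 was at 743 and 566 against 35.9 and 15.8 (4.32, SE 0.77, adjusted p = 0.0085). Among chaperones, Hyou1 passed with the block alone (adjusted p = 0.12, and 0.016 with the block). Hspa5 (BiP) was at 961 and 597 against 421 and 288 (adjusted p = 0.66), Canx (calnexin) at 313 and 223 against 279 and 185 (adjusted p = 0.98), and Ern1, the common IRE1, at 12.7 and 16.4 against 6.62 and 4.94 (adjusted p = 0.49). None of 26 tested genes of ER translocation and signal peptide removal passed (median 0.58), with or without the block. Of 39 genes of ER to Golgi transport, 2 were higher, Tmed3 and Copz2, a cargo receptor and a coat subunit (median 0.13), beside 2.66% of all genes tested.

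**Figure D2:**
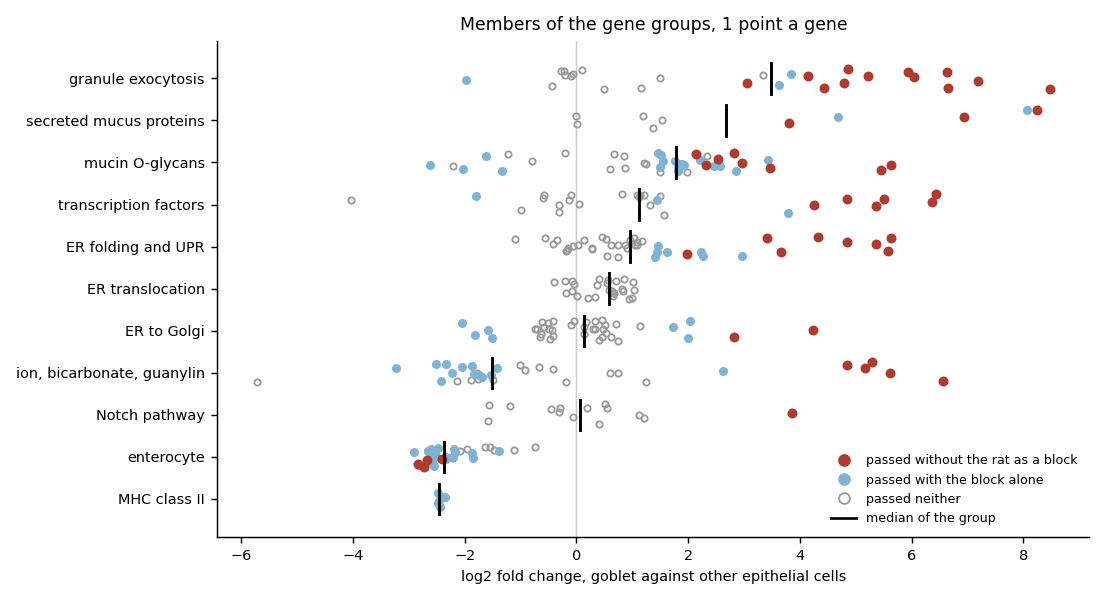
Log2 fold change between goblet and other epithelial cells for each tested member of 11 gene groups, with a bar at the median of the group and colors for genes that passed an adjusted p of 0.05 without the rat as a block, with it alone, or in neither fit. The bars stand at 3.48 for granule exocytosis, 0.96 for ER folding and -2.37 for enterocyte genes.

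The same ER genes were compared with the other secretory cells, the mean of the tuft, CHE and EEC classes. In this comparison 156 genes were higher in goblet cells (1.77%) and 6 were lower (0.0681%), 1.84% in all. With the block, 472 were higher (5.36%) and 78 lower (0.886%), 6.25% in all. The ER folding list now had 16 of 41 members higher and none lower, with a median log2 fold change of 1.48 against 0.23 over all genes tested. Pdia6 was at 786 and 565 CPM in goblet cells (log2 fold change 3.27, SE 0.50, adjusted p = 0.0054), Hsp90b1 (GRP94) at 578 and 382 (1.72, SE 0.39, adjusted p = 0.045) and Creld2 at 128 and 57.0 (2.25, SE 0.50, adjusted p = 0.038). The other secretory classes were thin, with 32, 4 and 24 cells in rat 1 and 147, 56 and 10 in rat 2. With tuft cells alone as the other side, 109 genes were higher and 104 lower, and 26 of 60 named or listed calls were lost.

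Many chaperone genes carry the ER stress response element in their promoters, CCAAT and CCACG separated by 9 bases, a sequence bound by ATF6 and XBP1 with the CCAAT factor NF-Y. It was searched on both strands in the 300-base promoter windows of RefSeq (rat assembly GRCr8), which run from 250 bases before the start of a gene. It was in 22 of 33469 windows (0.0657%) and in 9 of 38 windows matched to the ER folding list (23.7%). It was in none of 190 windows of genes that were higher against other epithelial cells and in 2 of 124 (1.61%) of those higher against other secretory cells, which were Hsp90b1 and Creld2. The windows of these 2 genes and of Xbp1, the factor that acts through the element, are shown with each match in capitals, since Hsp90b1 and Creld2 passed against other secretory cells and Xbp1 encodes a factor that binds the element. They lie at chr7:23012244-23012543 on the minus strand (Hsp90b1), chr7:121789134-121789433 on the plus strand (Creld2) and chr14:84604373-84604672 on the plus strand (Xbp1), and are written 5′ to 3′.
Hsp90b1: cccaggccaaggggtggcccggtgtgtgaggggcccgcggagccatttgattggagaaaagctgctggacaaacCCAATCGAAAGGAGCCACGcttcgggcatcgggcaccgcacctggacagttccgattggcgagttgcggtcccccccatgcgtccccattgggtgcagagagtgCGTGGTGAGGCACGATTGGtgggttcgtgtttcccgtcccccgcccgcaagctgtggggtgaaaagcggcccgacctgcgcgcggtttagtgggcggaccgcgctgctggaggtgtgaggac
Creld2: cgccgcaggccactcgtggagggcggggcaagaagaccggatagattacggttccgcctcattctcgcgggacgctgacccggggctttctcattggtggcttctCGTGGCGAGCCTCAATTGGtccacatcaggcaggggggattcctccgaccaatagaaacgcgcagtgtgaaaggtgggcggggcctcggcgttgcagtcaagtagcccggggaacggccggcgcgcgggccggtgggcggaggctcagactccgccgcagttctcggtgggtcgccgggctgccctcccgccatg
Xbp1: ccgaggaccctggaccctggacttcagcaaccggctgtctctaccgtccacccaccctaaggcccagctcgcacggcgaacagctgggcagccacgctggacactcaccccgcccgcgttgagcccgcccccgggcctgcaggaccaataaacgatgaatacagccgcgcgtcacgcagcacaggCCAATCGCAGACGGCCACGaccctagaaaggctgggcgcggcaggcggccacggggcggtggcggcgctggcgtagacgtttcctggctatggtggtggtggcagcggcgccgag
Hsp90b1 held 2 matches and the other genes 1 each. Xbp1 itself was at 56.6 and 55.5 CPM in goblet cells and 19.8 and 12.3 in other epithelial cells (adjusted p = 0.18, and 0.021 with the block). Such a match is a description of the letters in the window.

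The remaining genes that were largest against other secretory cells were mostly those already named. Log2 fold changes and adjusted p-values in this paragraph are against the mean of the tuft, CHE and EEC classes, not 1 of them. Spink4 and Fer1l6 had no UMI in EECs of either rat. At a floor of 3 counts a library, Spink4 was at least 111-fold higher in goblet cells than in EECs of rat 1 and at least 38-fold higher in rat 2, and both genes passed the test (adjusted p = 0.0049 and 0.0014). Clca2, a relative of Clca1, was at 148 and 56.0 CPM in goblet cells and 7.82 and 1.37 in tuft cells (adjusted p = 0.0042). Rep15, a Rab15 effector, was at 315 and 133 against 23.4 and 0.683 in tuft cells (adjusted p = 0.021). Of the 6 genes that were lower, Gpr6, an orphan G protein-coupled receptor, was at 3.30 and 3.97 in goblet cells and 215 (7 UMIs) and 402 in CHEs (log2 fold change -3.61, SE 0.79, adjusted p = 0.041).

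Of 32 tested ion and fluid genes, 5 were higher and none was lower, whereas the median log2 fold change was -1.51, and with the block 6 were higher and 12 lower. Guca2a encodes guanylin, the peptide that activates the receptor guanylate cyclase C. It was at 9645 and 19772 CPM in goblet cells and 495 and 173 in other epithelial cells (log2 fold change 5.16, SE 1.22, adjusted p = 0.039). Guca2a was no lower in CHEs, at 41787 and 21840. Fxyd3, a regulator of the sodium pump, was at 1385 and 835 against 35.1 and 2.72 (adjusted p = 0.012), and Ano1, a calcium-activated chloride channel, at 21.7 and 23.8 against 1.18 and 0.0654 (adjusted p = 0.018). Fxyd3 was also found in cycling goblet-lineage cells, at 942 and 977, and in EECs, at 1064 and 885. The second guanylin peptide did not pass. Guca2b (uroguanylin) was at 905 and 1230 against 1996 and 2503 (adjusted p = 0.52), and Gucy2c, the receptor of both peptides, at 55.2 and 55.5 against 107 and 166 (adjusted p = 0.16, and 0.031 with the block). The chloride-bicarbonate exchangers Slc26a3 and Slc26a6 were lower with the block alone (adjusted p = 0.0034 and 0.0079), and Cftr was at 25.02 and 18.3 against 44.2 and 65.2 (adjusted p = 0.33).

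Absorptive genes were lower but far from absent. Of 32 tested enterocyte genes, 4 were lower and none was higher (median log2 fold change -2.37), and with the block 24 were lower. The direction was the same in both rats for 31 of the 32. Lct, lactase, was at 219 and 242 CPM in goblet cells and 803 and 1361 in other epithelial cells (log2 fold change -2.68, SE 0.62, adjusted p = 0.036). Slc15a1, the peptide transporter PEPT1, was at 59.0 and 44.6 against 182 and 318 (-2.73, SE 0.53, adjusted p = 0.014), and Mme, neprilysin, at 60.4 and 49.1 against 261 and 324 (-2.85, SE 0.69, adjusted p = 0.044). The genes with the largest negative differences outside the list had like roles. Bco1 cleaves β-carotene and was at 51.0 and 57.0 against 185 and 499 (-3.14, SE 0.69, adjusted p = 0.029). Slc7a7 and Slc3a1 carry amino acids, Asah2 is a brush border ceramidase and Gk is glycerol kinase, at log2 fold changes between -3.09 and -2.70. This direction depends on the other side of the comparison. Against other epithelial cells with under 1% of their UMIs in the enterocyte list, several of the lower genes had a positive log2 fold change, Lct at 2.53. Lct, Slc15a1 and Mme belong to the list that chose these cells, so their values here are a description and no test of the direction. The antigen presentation genes of MHC class II were lower too, with 5 of 5 passing with the block (median log2 fold change -2.47 without it, where none passed). Cd74, the invariant chain, was at 197 and 110 against 671 and 607 (adjusted p = 0.14, and 0.0064 with the block). Ptprc-positive barcodes, a sign of leukocytes, were 10 of 224 goblet cells and 176 of 5609 other epithelial cells in rat 1. In rat 2 they were 9 of 165 and 243 of 1462. Their part in the MHC class II values was not tested.

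The comparison with cycling goblet-lineage cells asked how goblet cells differ from dividing cells that pass the same marker limit. There were 84 such cells in rat 1 and 11 in rat 2. Without the block no gene passed in edgeR, although 1304 had an unadjusted p under 0.05 and DESeq2 called 385. With the rat as a block, 470 genes were higher in non-cycling goblet cells (5.34%) and 306 lower (3.48%), 8.81% in all, and the adjusted p-values in this comparison come from that fit. Mki67 and Top2a, which split the classes, were not tested. Since these genes define the split, lower levels of other cell cycle genes follow from it and are given as a description. Of 36 cell cycle genes fitted, 27 were lower and none was higher. Ube2c, a ubiquitin-conjugating enzyme of mitosis, was at 11.8 and 3.97 CPM in goblet cells and 462 and 849 in cycling cells. The cell cycle inhibitor Cdkn1a was at 148 and 365 against 63.6 and 30.2 (adjusted p = 0.070).

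Enterocyte genes ran the other way. Of 32 enterocyte genes, 24 were higher in goblet cells than in cycling goblet-lineage cells and none was lower (median log2 fold change 2.80 against -0.04 over all genes). Apoa4, an apolipoprotein of chylomicrons, was at 3800 and 4321 CPM in goblet cells, 156 and 177 in cycling cells and 6839 and 16063 in other epithelial cells (adjusted p = 0.0015 against cycling cells). Goblet cells thus lay between cycling and other epithelial cells for most of this list (the plot of enterocyte and cell cycle genes). The enterocyte list took 2.57% and 1.97% of all goblet UMIs, 0.493% and 0.158% in cycling goblet-lineage cells and 9.88% and 10.9% in other epithelial cells, and over 10% in 18 goblet cells of rat 1 and 2 of rat 2. Transcripts of other cells moved the same way. The hemoglobin list took 0.0807% and 0.0888% of goblet UMIs and 0.00517% and 0.00488% of those of cycling cells. Hba-a1, a hemoglobin chain, was at 539 and 640 CPM against 30.4 and 37.7 (log2 fold change 4.24, adjusted p = 0.041), and Cd74 was at 197 and 110.1 against 25.7 and 22.6 (adjusted p = 0.011). The part of transcripts from other cells in the enterocyte values was not tested.

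**Figure D3:**
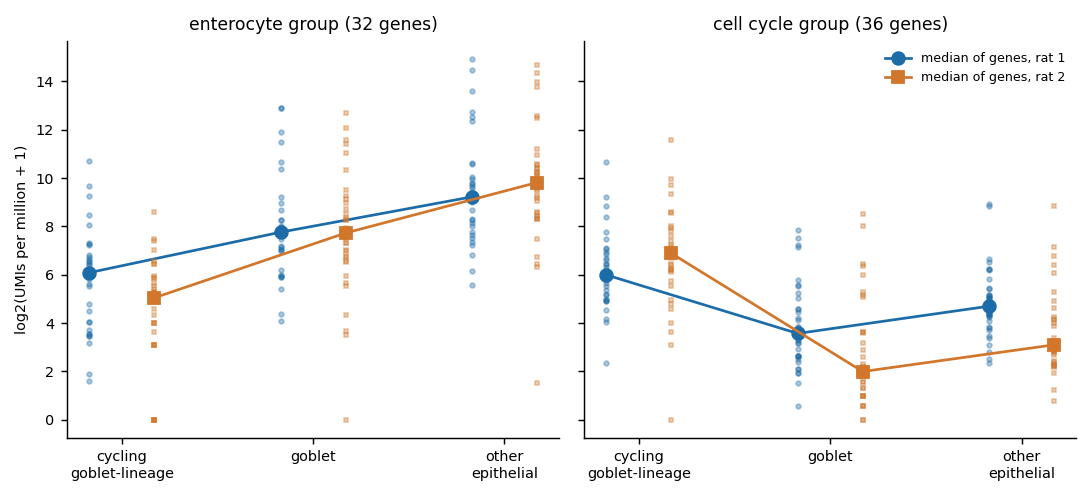
Level, as log2 of CPM plus 1, of the 32 enterocyte genes and 36 cell cycle genes in cycling goblet-lineage, goblet and other epithelial cells, with small markers for genes, large markers for the median of the genes and 1 color a rat. The median of the enterocyte genes rises from cycling to goblet to other epithelial cells in both rats, and the median of the cell cycle genes is lowest in goblet cells.

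Muc2 itself was higher than in cycling cells, at 9816 and 38415 CPM against 2136 and 3504 (log2 fold change 3.38, SE 0.83, adjusted p = 0.015). Guca2a was at 9645 and 19772 against 1202 and 238 (4.92, SE 0.95, adjusted p = 0.0035), Reg4 at 636 and 1629 against 101 and 204 (3.05, SE 0.69, adjusted p = 0.0097) and Reg3g, an antibacterial lectin, at 81.7 and 311 against 9.47 and 7.54 (4.10, SE 0.60, adjusted p = 0.00069). For the main secretory genes no difference was shown. Atoh1 was at 221 and 419 in cycling cells (adjusted p = 0.73), Spdef at 188 and 313 (adjusted p = 0.47) and Spink4 at 1049 and 2150 (adjusted p = 0.76). None of the 26 transcription factors, 1 of 41 ER folding genes (Eif2ak3, the stress kinase PERK) and 3 of 26 exocytosis genes (Capn9, Rab3b and Sytl2) were higher, beside 5.34% of all genes tested. Areg, which encodes the EGF receptor ligand amphiregulin, had no UMI in cycling goblet-lineage cells. It was at 65.1 and 656 CPM in goblet cells, at least 32.1-fold and 58.0-fold above a floor of 3 counts a library (adjusted p = 0.00034). Its relative Hbegf was at 28.3 and 233 against 5.41 and 7.54 (3.58, SE 0.72, adjusted p = 0.0050). Areg UMIs lay in 15 goblet cells of rat 1 and 102 of rat 2. Interferon-response genes Isg15 and Samd9, the lectin Lgals3 and Sectm1b were among the 8 named genes with the largest positive difference. Isg15 was at 157 and 484 against 4.06 and 0 (adjusted p = 0.00053). Nts and Defa24 were also named by the rule, but 92.5% of the Nts UMIs of rat 1 and 99.7% of the Defa24 UMIs of rat 2 came from 1 cell each.

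Goblet cells were not uniform, and their states differed in number between the rats. Muc2, which the rule did not use, was counted here per 1000000 UMIs outside the rule genes and Muc2. It ranged from 0 to 101220 across the cells of rat 1 and from 0 to 145120 across those of rat 2. For the values that follow, UMIs were counted outside the rule genes and Muc2, so that a rise of these transcripts does not lower the others by arithmetic alone, and cells were thinned to 2500 such UMIs where single cells are described. The genes were picked after their values had been seen and no test was made. Over 224 cells of rat 1 and 165 of rat 2, Guca2a came first among 474 genes by the lower of its rank correlations with Muc2 in the 2 rats (Spearman rho 0.885 and 0.697). Krt20, a keratin of mature epithelium (0.751 and 0.653), Muc13, a membrane mucin (0.695 and 0.690), Mxd1, a Myc antagonist of differentiated cells (0.654 and 0.699), and Lypd8, a protein that holds bacteria off the colonic wall (0.654 and 0.624), were also high. On the opposite side stood Itln1, the lectin intelectin 1 (-0.615 and -0.513), and all 56 ribosomal protein genes among the 474, with medians of -0.596 and -0.546 against 0.0724 and -0.0176 over all 474 genes. The cells of a rat share a library, and depth differed along this axis.

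Goblet cells of each rat were split into 3 equal sets (tertiles) by Muc2. From the low to the middle to the high tertile, Guca2a was at 1184, 4797 and 32485 CPM in rat 1 and 4796, 37685 and 38902 in rat 2. Krt20 was at 1203, 2350 and 6010 and at 2394, 8771 and 9751. Itln1 went down, at 7925, 4553 and 986 in rat 1 and 3703, 140 and 75.2 in rat 2. The ribosomal protein transcripts took 20.6%, 15.9% and 7.02% of UMIs in rat 1 and 10.1%, 1.45% and 1.21% in rat 2. High Muc2 thus went with high guanylin and keratin 20, and low Muc2 with intelectin and ribosomal transcripts. Reg4 was at 91.9, 299 and 2145 and at 706, 1861 and 4017, and the exocytosis GTPase Rab3b at 1.19, 6.44 and 130 and at 52.7, 430 and 489. Atoh1 was at 289, 271 and 521 and at 336, 463 and 476, a far smaller span. Sox9, a factor of crypt cells, was at 83.6, 24.5 and 6.20 in rat 1 and 57.6, 0 and 0 in rat 2. Of the rule markers, Agr2 was at 2.48%, 2.37% and 1.78% of all UMIs in rat 1 and at 1.85%, 0.331% and 0.266% in rat 2, whereas Zg16 was at 0.638%, 2.63% and 13.5% and at 3.49%, 19.1% and 19.4%.

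**Figure D4:**
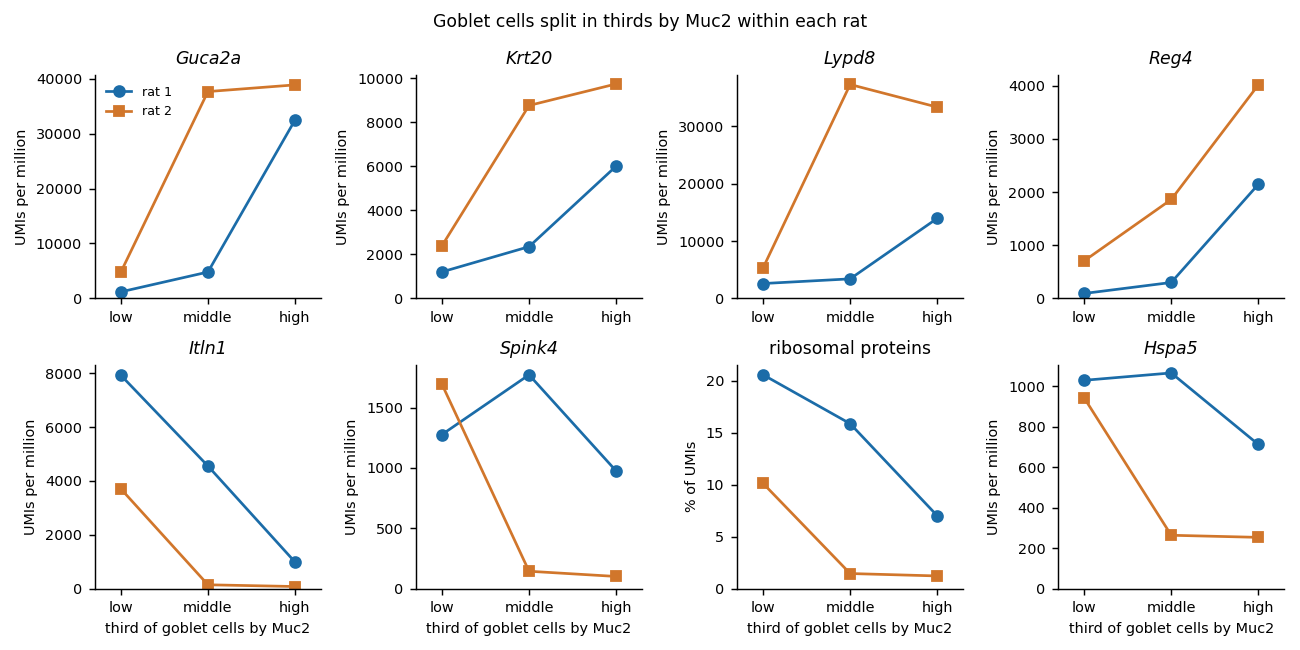
Level of 7 genes (CPM outside the rule genes and Muc2) and share of ribosomal protein transcripts (% of the same UMIs) in goblet cells divided into tertiles by Muc2 within each rat, 1 line a rat. Guca2a, Krt20 and Reg4 increase from the low to the high tertile and Itln1 and ribosomal transcripts decrease in both rats, while Lypd8 and Spink4 peak in the middle tertile of 1 rat each.

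The ER folding list took 1.47%, 1.53% and 1.31% of UMIs in the low, middle and high tertile of rat 1 and 1.597%, 0.818% and 0.871% in rat 2. Of its members, Hspa5 was at 1030, 1067 and 713 CPM in rat 1 and 943, 264 and 253 in rat 2, Hsp90b1 at 706, 609 and 331 and at 654, 120 and 95.3, and Sdf2l1, a chaperone cofactor, at 228, 187 and 53.7 and at 233, 13.6 and 2.51. Dusp1, an immediate early gene of the stress list, was at 41.8, 67.0 and 391 and at 163, 971 and 1184. The whole dissociation and stress list took 0.252%, 0.286% and 0.510% of UMIs in rat 1 and 0.318%, 1.02% and 1.23% in rat 2, and the median mitochondrial share was 8.07%, 8.11% and 4.42% and 11.1%, 2.87% and 3.51%. The part of tissue handling in the Muc2 order was not tested.

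The intelectin and guanylin transcripts were also counted in single cells. At 10 or more thinned UMIs, Itln1 was counted in 97 goblet cells of rat 1 and 21 of rat 2, Guca2a in 108 and 130, and both in 20 and 0. At 5 or more, Itln1 was counted in 123 and 23 cells, Guca2a in 147 and 140, and both in 56 and 6, so the overlap depended on the limit. The median cell had 6 Itln1 UMIs in rat 1 and 0 in rat 2, and 9 and 60 of Guca2a. Over the summed cells, Muc2 was 3.91 times as high in rat 2 as in rat 1 (95% interval 3.85 to 3.97, counting error only), Guca2a 2.05 times (2.02 to 2.08), Lypd8 3.46 times (3.38 to 3.53) and Itln1 0.384 times (0.370 to 0.399). Atoh1 differed by 1.15 times (1.04 to 1.28). With 1 library a rat there is no test of this difference.

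**Figure D5:**
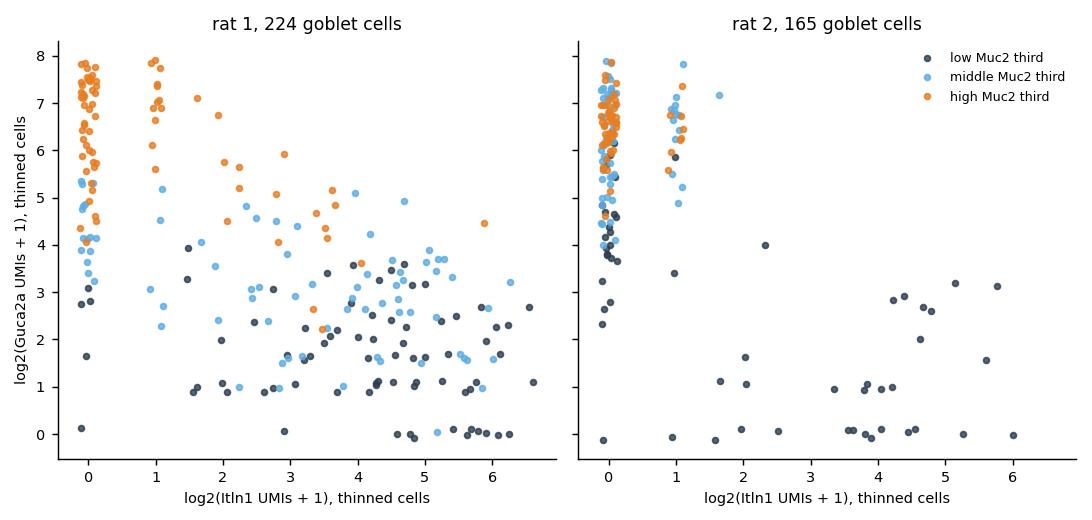
Guca2a against Itln1 in single goblet cells thinned to 2500 UMIs outside the rule genes and Muc2, as log2 of UMIs plus 1 with a small jitter, 1 panel a rat and 1 color for each tertile by Muc2. Rat 1 fills an arc from high Itln1 to high Guca2a, while most cells of rat 2 lie at high Guca2a and no Itln1.

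Markers of other cell types were low but not evenly spread over the goblet cells. The Paneth list took 0.0629% of goblet UMIs in rat 1 and 0.202% in rat 2, and exceeded 1% in 3 and 4 cells. In rat 2, 980 of 983 Defa24 UMIs came from 1 cell. Lyz2, lysozyme, was broader, with UMIs in 92 and 46 goblet cells, and was at 537 and 942 CPM against 90.4 and 10.3 in other epithelial cells (adjusted p = 0.11, and 0.012 with the block). The EEC list took 0.0709% and 0.391%, and 3 of its 16 tested members were higher than in other epithelial cells (Chga, Cpe and Scg3). Cells with at least 10 UMIs of Chga and Chgb were taken out of the other epithelial class but not out of the goblet cells. The Chga call thus follows in part from the gate and is a description. In rat 2, 2 goblet cells held at least 10 UMIs of Chga and Chgb, and the top 2 cells of each gene gave 99.7% of the Cck UMIs and 99.0% of the Chga UMIs. Cpe and Sct were broader, with UMIs in 13 and 72 goblet cells for Cpe and 103 and 73 for Sct. In rat 2 their top 2 cells gave 60.7% of the Cpe UMIs and 75.1% of the Sct UMIs. The tuft list took 0.162% and 0.211%, nearly all from Cd24, with Il25 and Pou2f3 at 0 in both rats. The CHE list took 0.0798% and 0.0956%, and Otop2 was at 0. The leukocyte list took 0.0306% and 0.0237%, and the hemoglobin list 0.0807% and 0.0888%. Without the cells above 1% of the Paneth list, 255 genes passed against other epithelial cells, and without Ptprc or hemoglobin cells 300.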

How the data were processed

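Single-cell 3′ RNA-seq of jejunal epithelium from 2 rats, 1 library each, was analyzed. The deposited matrices hold UMI counts per gene and barcode that the authors made with Cell Ranger on the rat build rn6 (per the file headers, versions 3.1.0 for rat 1 and 5.0.1 for rat 2). Barcode filters follow the study's methods, whereas its removal of Ptprc or hemoglobin clusters was tried only as an alternative. No cell annotation was used. Doublet calls by Scrublet in scanpy 1.11.5 marked 1 goblet cell in each rat and were removed in an alternative only. The members, gene lists and tests were chosen with earlier results of these data known. List members without a row in the files, or under the filter on low counts, were not analysed here.

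Cycling goblet-lineage cells met the marker limit with at least 2 UMIs of Mki67 and Top2a. Tuft cells had at least 5 UMIs of Dclk1, Trpm5, Gfi1b, Avil, Pou2f3 and Il25, CHEs at least 5 of Best4 and Otop2, and EECs at least 10 of Chga and Chgb, which are gates and not annotated types. UMI counts were summed per rat and class (12 sums, 32570 to 79664054 UMIs outside the 7 rule genes) and tested with edgeR 4.0.16 (TMM scaling, filterByExpr, glmQLFTest) in R 4.3.3, with DESeq2 1.42.0 as an alternative. The threshold was an adjusted p of 0.05. The test was run on simulated data with known changes first. The rat was added as a block because both sums of a pair come from the same animal. The deviations of same-rat sums correlated in all 15 pairs of classes, with a median r of 0.263 (0.082 to 0.772, over 2858 genes). Scaling by DESeq2 size factors moved the median log2 fold change of all genes against other epithelial cells from -0.10 to 0.0093. Without the block, p-values rest on the spread between the 2 rats within a class, pooled over all classes in the fit. With the block, they rest on the spread that remains once a rat difference shared by the classes is removed. Both come from 2 rats only.

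Named genes passed the threshold in the same direction in both rats with at least 50 CPM in the higher class in both rats, as the 15 largest higher and 10 largest lower against other epithelial cells and the 8 largest each way elsewhere, besides list members. Unnamed clone and locus symbols were left out, except that of Muc2. In the cycling comparison this rule was applied to the blocked fit, a choice made after the data were seen. Cells were thinned by random draws without replacement (seed 1). Promoter windows came from RefSeq (GRCr8). The symbol table lists 32883 genes. Results of a few genes that met the naming rule or belong to a list are not reported here.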

Additional observations from a re-analysis of the deposited data

Results flagged for a closer look

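Some barcodes outside the filters met the marker limit of goblet cells. Among barcodes with 5000 UMIs or fewer, they were 127 of 5816 in rat 1 (2.18%, exact 95% interval 1.82 to 2.59) and 39 of 4439 in rat 2 (0.879%, 0.625 to 1.20), where a count of 0 would have allowed 0.0516% and 0.0676%. Their median depths were 1455 and 2161 UMIs. Among barcodes with over 5000 UMIs, over 40% of them mitochondrial, 4 of 1510 did so in rat 2 (0.265%, 0.0722 to 0.677), above the 0.199% that a count of 0 allows. In rat 1, 0 of 182 did so, which allows up to 1.65%. No comparison used these barcodes.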

How the results depend on the processing

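Against other epithelial cells (270 genes called), 534 were called by DESeq2 (372 higher and 162 lower), 864 without a filter on low counts, 1207 with the replicate block, 483 at a marker limit of 10%, 445 against non-cycling cells, 0 against all other Epcam-positive cells (1489 of 11264 at an unadjusted p under 0.05) and 0 with only the sums compared. Both fits without a call held only 4 sums. The other 11 alternatives gave 182 to 357. Against cycling goblet-lineage cells (0 called), 385 were called by DESeq2, 839 without the filter, 776 with the replicate block, 52 at a mitochondrial limit of 20%, 154 at over 1000 UMIs and 434 with only the sums compared. Against other secretory cells (162 called), 273 were called by DESeq2, 582 without the filter, 550 with the replicate block, 293 at a marker limit of 10% and 259 at over 1000 UMIs, while tuft cells alone, an alternative chosen after seeing the data, gave 213. The goblet cell number (389) became 282 at a marker limit of 10% and 518 at over 1000 UMIs, and the share (4.97%) became 3.60% at a marker limit of 10% and 6.11% at a mitochondrial limit of 20%. Leaving out 1 rat gave 165 to 224 cells and 3.75% to 8.90%, and left 1 sum per class, so no count of genes could be tested. Against cells with under 1% of UMIs in the enterocyte list, the log2 fold change reversed to 2.53 for Lct, 2.12 for Slc3a1, 3.02 for Mme, 2.09 for Slc7a7, 2.42 for Slc15a1, 1.55 for Bco1, 2.58 for Asah2, 0.41 for Epb41l3, 3.40 for Slc2a5 and 1.42 for Gk. Lct, Mme, Slc15a1 and Slc2a5 are in the list that chose these cells, so their reversal is a description. Chga reversed to -0.33 against all other Epcam-positive cells. That class takes in the EECs, which Chga and Chgb chose, so this reversal is a description too. Scg3 reversed to -1.83 at a marker limit of 10%. The causes of the other reversals were not tested. The block ended no call of the named or listed genes.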

Other observations

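Of 17 tested members of a list of EGF family and other growth factors and chemokines, none passed against other epithelial cells without the rat as a block (median log2 fold change 0.26), and 5 were higher and 1 lower with it, beside 6.67% and 7.04% of all genes. Areg was at 65.1 and 656 CPM in goblet cells of rat 1 and rat 2 and at 6.89 and 58.3 in other epithelial cells (adjusted p = 0.37 in edgeR, and 0.0022 with the block). Wnt3, a ligand of the crypt niche, was at 7.55 and 21.8 against 1.00 and 0.524 (adjusted p = 0.085, and 0.0071 with the block). Ccl25, a chemokine that draws lymphocytes to the small intestine, was on the lower side, at 261 and 70.4 against 696 and 288 (adjusted p = 0.49, and 0.010 with the block).

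Among 17 tested genes of dissociation and stress, none passed without the block (median log2 fold change 0.94), and Atf3, Dusp1 and Egr1, immediate early genes, were higher with it. Egr1 was at 165 and 346 CPM against 73.5 and 22.2 (adjusted p = 0.16 in edgeR, and 0.018 with the block). None of 11 tested stem cell genes passed without the block, and Olfm4, a crypt base marker, was lower with it, at 76.9 and 1.98 against 186 and 14.5 (adjusted p = 0.88, and 0.035 with the block). With the block, 6.67% of all genes tested were higher and 7.04% lower. Reg3b, an antibacterial lectin, was at 316 and 434 against 839 and 1728 (adjusted p = 0.39), whereas Reg4 of the same family was among the genes with the largest positive difference.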
